A study of Mus musculus with 8 samples.

Results

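The replication-dependent histone genes of the mouse were examined in bulk RNA-seq of tumours after photodynamic therapy. They were the genes whose symbols begin with H2ac, H2bc, H3c or H4c followed by a number, together with H1f1 to H1f5. The rule found 67 of the 57132 genes in the count table: 5 linker histone H1 genes, 18 H2A genes, 19 H2B genes, 12 H3 genes and 13 H4 genes. They lay on chromosome 13 (53 genes), chromosome 3 (10 genes), chromosome 11 (3 genes) and chromosome 6 (1 gene).

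The study compared mice that carried subcutaneous tumours of KPC pancreatic cancer, a mouse tumour model. The tumours of the PBS group (4 libraries) received the buffer. The tumours of the PDT group (4 libraries) received Ce6@D4-EV and light, where Ce6 is the photosensitiser chlorin e6 and D4-EV its carrier. Both groups carried the same kind of tumour, and light alone or the unlit carrier was not analysed here. The labels give no strain, age, dose or harvest time, call the tissue sorted without naming a gate, and do not say whether each library is a different mouse. The p-values therefore measure only the spread between these libraries. The libraries are described as total RNA depleted of ribosomal RNA, a preparation without selection for poly(A) tails. Whether RNAs without a tail were fully kept was not tested.

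Histones package DNA: pairs of H2A, H2B, H3 and H4 form the nucleosome core, and H1 binds the linker DNA between cores. The genes described here are switched on in S phase, when new DNA needs new histones. Their mRNAs are unusual in that they usually have no introns and end in a short stem-loop in place of a poly(A) tail. The stem-loop is bound by SLBP, and the pre-mRNA is cut after it with the help of the U7 small nuclear RNP. Some of the genes are also known to give polyadenylated mRNAs when the transcript runs past the stem-loop, as in differentiated cells.

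The stem-loop is the feature that sets these mRNAs apart, so its sequence was read from the annotated transcripts (GENCODE M21, matched by Ensembl identifier). The letters searched, on the transcript strand, were GGC, any base, CTTTT, any base, AG, any base and GCC. They were found in 41 of the 49 genes with at least 50 annotated bases after the stop codon, between 21 and 58 bases after it. Capitals mark the stem and loop in these examples of each type, which show the letters shared by a highly read gene (H1f2, H4c9) and by genes with few reads.
H1f2: caaaaGGCTCTTTTCAGAGCCaccactc
H1f4: ccaaaGGCTCTTTTCAGAGCCacccaca
H2ac6: ccaaaGGCTCTTTTCAGAGCCcccactt
H2bc6: ccaaaGGCTCTTTTCAGAGCCacccaac
H3c4: ccaaaGGCTCTTTTCAGAGCCacccccg
H4c9: ttaaaGGCCCTTTTTAGGGCCaccacaa
H4c3: caaaaGGCCCTTTTCAGGGCCacccaca
The H4 genes carried their own version of the stem. The form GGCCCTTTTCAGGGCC stood in 7 H4 genes and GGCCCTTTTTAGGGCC in 2, and no gene of another type had either. The form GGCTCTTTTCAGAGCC stood in 3 H1, 10 H2A, 8 H2B and 5 H3 genes. H1f2 and H1f4 shared the same stem and loop although their levels, given next, lay far apart.

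Most of these genes had almost no reads. In CPM (read counts scaled to a common library size with the TMM method of edgeR), 56 of the 67 genes averaged under 1 CPM over the 8 libraries, and 10 had no read in any library. The 67 genes together held 8088 to 13277 reads per library, which was 0.0196% to 0.0288% of all reads. H1f2, a somatic linker histone, and H2bc4, an H2B gene, held 77.8% to 87.7% of them. The share of this pair was 85.7% ± 2.10 (SD, n = 4) with PBS and 81.7% ± 2.82 (SD, n = 4) with PDT. The lowest share was that of PDT 4 at 77.8%, with a 95% Wilson interval of 76.9% to 78.7%. The interval covers counting error only, and it is too narrow if both reads of a pair were counted.

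Only 3 genes averaged 10 CPM or more: H2bc4 at 103 CPM, H1f2 at 102 CPM and H4c9 at 10.3 CPM. A further 8 lay between 1 and 10 CPM, namely H1f3, H2ac25, H2ac8, H2bc21, H2bc27, H2bc6, H2bc8 and H4c8. Reads were found in all 8 libraries for 13 genes and in 1 to 7 libraries for 44. The number of the 67 genes with a read was 27, 28, 28 and 33 in PBS 1 to 4, and 40, 38, 42 and 51 in PDT 1 to 4. These groups did not overlap. If each library had the 35742024 counts of the smallest, the expected numbers would be 27.0 to 33.0 with PBS and 37.9 to 50.7 with PDT. This draws each count on its own. If both reads of a pair were counted, more genes would be lost than it gives, so it does not settle the part of depth. Over all genes, at the full counts, 17537 to 19835 had a read with PBS and 19686 to 22317 with PDT. The part of this difference in the count of histone genes was not tested. The genes at 0 throughout were H2ac1, H2ac18, H2ac19, H2ac21, H2ac24, H2bc1, H2bc18, H2bc24, H3c13 and H3c14. A count of 0 allows up to 3 reads, or 0.0665 to 0.0872 CPM depending on the library. That limit holds only if reads that match several gene copies were counted, which is not given. It would be higher if both reads of a pair were counted. Of these 10 genes, 6 had under 50% of their sequence unique among annotated transcripts. H2ac1 and H2bc1 are known as testis histones, and the other 8 include somatic genes of the chromosome 3 and chromosome 13 clusters.

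**Figure D1:**
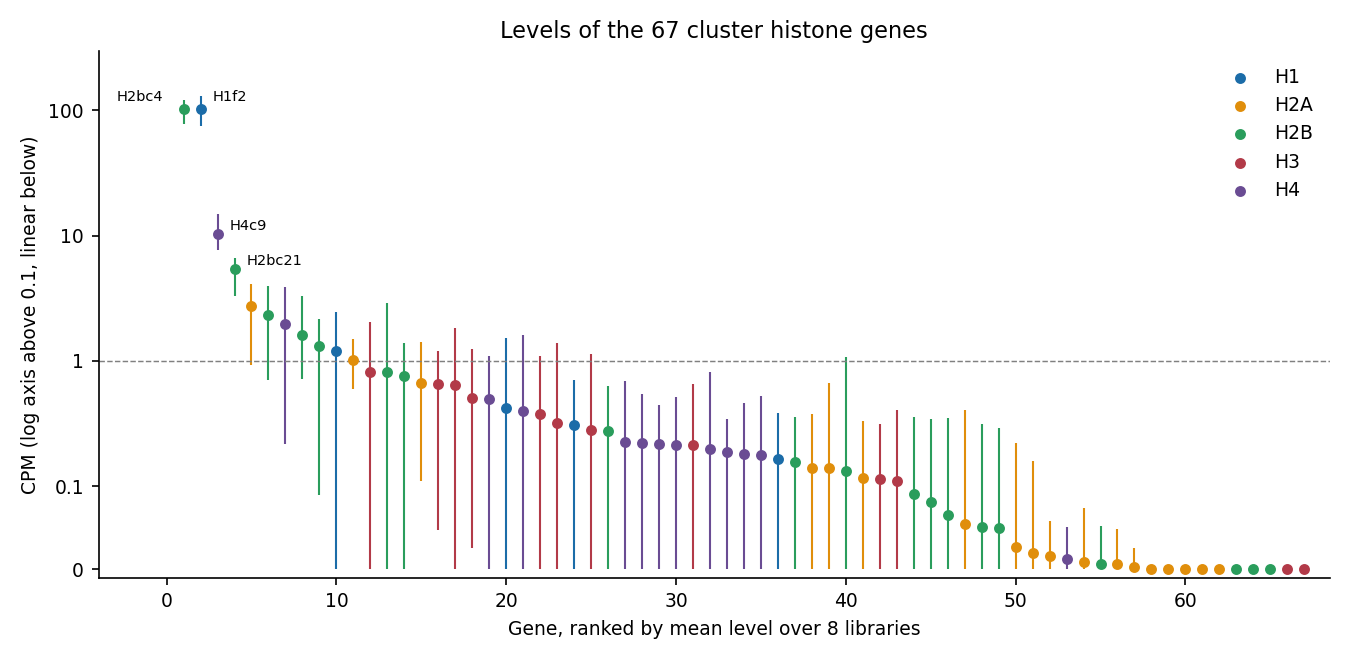
Mean level of each of the 67 genes over the 8 libraries, in CPM on an axis that is logarithmic above 0.1 and linear below, with bars from the lowest to the highest library and colours for the histone type. H2bc4 and H1f2 stand at about 100 CPM, H4c9 near 10, and 56 genes lie under the dashed line at 1 CPM.

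The libraries held 35742024 to 48804713 counts each. In a principal component analysis of all tested genes PBS 1 stood apart. Its score on component 1 (24.3% of the variance) was -107.9. PBS 2 to 4 scored -8.17 to 1.32 and the PDT libraries 15.9 to 39.4. PDT 4 stood apart in its 18S ribosomal RNA reads (Rn18s-rs5), at 1.34% of counts against 0.241% to 0.546% in the other libraries. Without PBS 1, the log2 ratio of the PDT to the PBS mean was -0.01 for all 67 genes in place of -0.07. All 10 epithelial markers of the tumour list were among the tested genes, with summed levels of 3575 to 7348 CPM with PBS and 3124 to 6258 CPM with PDT. The macrophage list summed to 1985 to 3872 CPM with PBS and 4816 to 6473 CPM with PDT, with 10 of 10 genes higher. In edgeR 1 of them (Cd68) was past the threshold, in DESeq2 6 and in limma-voom 3. Of all genes with an adjusted p, 0.235%, 6.36% and 1.01% were past it in these tools. The neutrophil and the skeletal muscle list each had 6 of 6 tested genes higher. The fibroblast list had 4 of 8 higher, the endothelium list 3 of 6 and the erythroid list 0 of 6. In bulk tissue, fewer cells of a type and less RNA per cell cannot be told apart.

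Summed over all 67 genes, the histone level was 280.2, 212.1, 271.8 and 235.2 CPM in PBS 1 to 4, and 294.3, 265.5, 190.4 and 200.2 CPM in PDT 1 to 4. The groups overlapped, and the means were 249.8 ± 31.9 and 237.6 ± 50.4 CPM (SD, n = 4 each). PDT 1 was the highest library and PDT 3 the lowest, so the spread lay within the treated group. Without H1f2 and H2bc4, a choice made after seeing the data, the other 65 genes summed to 33.3 to 38.4 CPM with PBS and 33.3 to 53.1 CPM with PDT. The log2 ratio of the means was then 0.29 in place of -0.07, and the groups still overlapped. No test was made of any sum, because the genes were chosen with earlier results of these data known.

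By type, the H1 sum was 110.7 ± 21.4 CPM with PBS and 97.5 ± 24.6 CPM with PDT (SD, n = 4 each, as for the sums that follow). The H2B sum was 119.4 ± 13.5 and 112.1 ± 23.1 CPM, and the H3 sum 3.91 ± 1.70 and 4.18 ± 1.13 CPM. For these 3 types the difference of the means was smaller than the SD of either group, and the libraries of the groups overlapped. The H4 sum was 11.96 ± 1.55 CPM with PBS and 17.7 ± 4.67 CPM with PDT. PDT 3 lay at 11.98 CPM, within the PBS range of 10.6 to 13.3 CPM, and PDT 2, 4 and 1 lay at 15.9, 21.1 and 21.9 CPM, above it. The log2 ratio of the H4 means was 0.57, and 0.47 without PDT 4, the library with the most 18S reads.

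The H2A sum was the only one of the 5 whose groups did not overlap. It was 3.24, 4.34, 3.26 and 4.39 CPM in PBS 1 to 4, and 6.76, 6.83, 4.77 and 6.18 CPM in PDT 1 to 4. The log2 ratio of the means was 0.69. Without H2ac25, the most abundant H2A gene, the sums ran from 1.25 to 2.34 CPM with PBS and from 1.23 to 4.33 CPM with PDT, and the groups overlapped. Of single tested genes over the whole table, 10.1% had groups that did not overlap in CPM. The macrophage markers above and 10 of 10 T and NK cell markers were also higher in PDT (7.31 to 14.5 CPM summed with PBS, 20.4 to 27.8 CPM with PDT), and their part in the H2A sum was not tested.

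**Figure D2:**
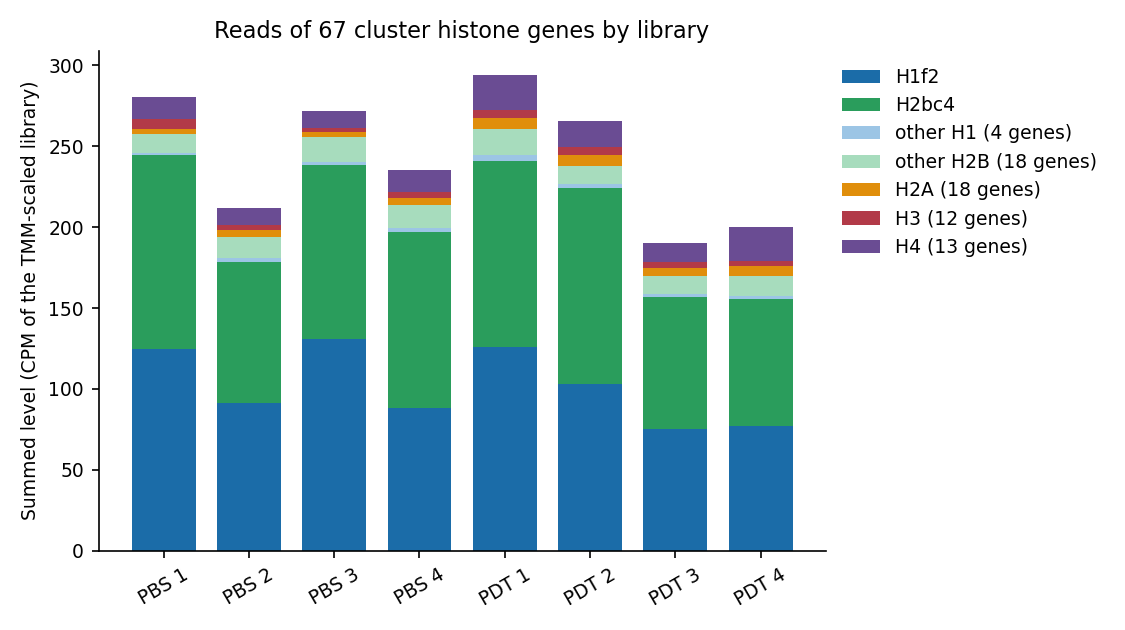
Summed CPM of the 67 genes in each of the 8 libraries as stacked bars, with H1f2 and H2bc4 drawn apart from the other genes of their types. H1f2 and H2bc4 fill most of every bar, and the bars of both groups run from about 190 to 294 CPM and overlap.

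Each gene was then compared between PDT and PBS with edgeR's quasi-likelihood test over all 16588 genes that passed the filter on low counts, with p adjusted by the Benjamini-Hochberg method. Of the 67 histone genes, 29 passed the filter: 4 H1, 3 H2A, 8 H2B, 6 H3 and 8 H4 genes. None of the 29 had an adjusted p under 0.05, where 0.235% of all tested genes did. None of the 29 had an unadjusted p under 0.05 either, against 16.5% of all tested genes. DESeq2 gave an adjusted p for 9 of the 29 and none for the other 20, and 0 of the 9 were under 0.05, against 6.36% of all genes with an adjusted p. In limma-voom 0 of the 29 had an adjusted p under 0.05, against 1.01% of all tested genes. Unadjusted p was under 0.05 for 0 of the 29 in either tool. No histone gene of the 29 had groups that did not overlap, against 10.1% of all tested genes.

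The 29 genes split into 15 higher and 14 lower in PDT, and their median log2 fold change was 0.10. Of all tested genes, 49.8% were higher. In limma-voom the split of the 29 was 21 higher and 8 lower. The split by type was 2 higher and 2 lower for H1, 3 and 0 for H2A, 1 and 7 for H2B, 2 and 4 for H3, and 7 and 1 for H4. The medians of log2 fold change were -0.04, 0.64, -0.21, -0.52 and 0.69 in that order, beside -0.0022 for all tested genes. In limma-voom the splits were 4 and 4 for H2B, 4 and 2 for H3 and 8 and 0 for H4, so the split of these types depended on the tool. The standard errors ran from 0.169 to 1.65 with a median of 1.09 on the log2 scale, so that for a typical gene of the 29 a doubling was within 1 standard error. The estimates ran from -2.17 for H3c11 to 2.88 for H4c14, the latter named after its value was seen. Of the 29, only H1f2 and H2bc4 had standard errors under 0.20.

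**Figure D3:**
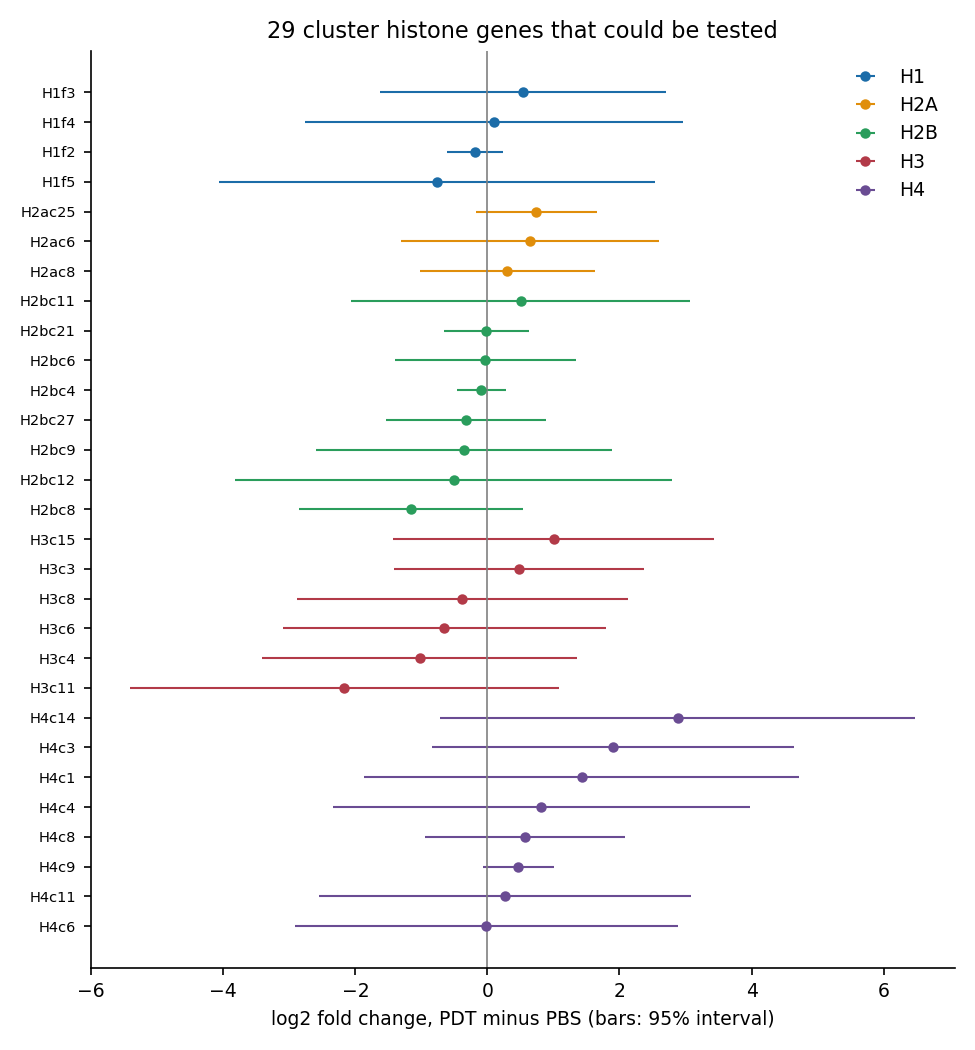
log2 fold change (PDT minus PBS) of the 29 tested histone genes with 95% intervals, grouped by histone type. All 29 intervals cross 0, and the intervals of H1f2 and H2bc4 are the narrowest.

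H1f2 (ENSMUSG00000036181) encodes H1.2, a linker histone found in most dividing and resting cells. Its level was 125, 91.4, 131 and 88.2 CPM in PBS 1 to 4, and 126, 103, 75.2 and 77.3 CPM in PDT 1 to 4. PBS 2 and 4 and PDT 3 and 4 were the low libraries, and the groups overlapped. The log2 fold change was -0.19 ± 0.19 (SE), the adjusted p in edgeR 0.693 and the 95% interval of the fold 0.652 to 1.18. With the GC and length correction the log2 fold change was -0.50, the interval of the fold 0.511 to 0.981, the unadjusted p 0.0395 and the adjusted p 0.289, so the limits of the fold depend on that choice. Per kilobase of transcript H1f2 averaged 65.4 CPM, whereas H1f1, H1f3, H1f4 and H1f5 averaged 0.221, 0.161, 0.159 and 0.564. These values depend on the annotated length, which was 7425 bases for H1f3 but 741 for H1f1 and 743 for H1f5. Not divided by length, H1f3 averaged 1.20 CPM, above H1f1, H1f4 and H1f5.

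The other H1 genes encode close relatives of H1.2 that are made in S phase, H1f1 mostly in germ and lymphoid cells. H1f3 lay between 0 and 1.63 CPM with PBS and between 0.624 and 2.44 CPM with PDT, with a log2 fold change of 0.54 ± 0.99 (SE, adjusted p in edgeR 0.849). H1f5 had no reads in PBS 1, PBS 3 and PDT 1 and reached 1.53 CPM in PBS 2. Its log2 fold change was -0.76 ± 1.51 (SE, adjusted p 0.863), and 0.68 without PBS 2. H1f4 lay between 0 and 0.709 CPM and H1f1 between 0 and 0.381 CPM, with reads absent in at least 2 libraries of the 8 for each. H1f4 shares annotated exon sequence with a long transcript of H2bc6, so reads of these neighbours may not be told apart.

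The promoters of the H1 genes carry related letters, printed here for the H1 gene with many reads and for one with few. They are RefSeq promoters of build GRCm38.p6, the 150 bases before the transcript start, which is H1f2 at chr13:23738657-23738806 on the plus strand and H1f4 at chr13:23622559-23622708 on the minus strand. Capitals mark AAACACA (the H1 box), CCAAT and TATAAA.
H1f2: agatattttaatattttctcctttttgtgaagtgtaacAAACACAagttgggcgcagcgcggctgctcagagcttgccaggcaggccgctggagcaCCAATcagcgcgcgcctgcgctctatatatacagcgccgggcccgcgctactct
H1f4: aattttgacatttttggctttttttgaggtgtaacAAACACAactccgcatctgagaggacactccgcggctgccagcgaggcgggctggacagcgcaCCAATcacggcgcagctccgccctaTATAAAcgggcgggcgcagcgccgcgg
Both held the H1 box and CCAAT in the same order, and H1f4 alone held TATAAA. H1f2 averaged 102 CPM and H1f4 0.307 CPM. Of the 67 genes, 57 had an entry in the RefSeq table, and the 250 bases before the start were searched on both strands in these and in all 27025 genes. CCAAT was found in 82.5% of the 57 and in 37.5% of all promoters, TATAAA in 49.1% and 14.3%, AAACACA in 14.0% and 7.20%, and the octamer ATTTGCAT in 22.8% and 1.81%. The letters fell by type: AAACACA stood in 4 of 5 H1, 2 of 17 H2A and 2 of 14 H2B genes and in 0 of the H3 and H4 genes, the octamer in 7 of 14 H2B and 6 of 17 H2A genes and in 0 of the H1, H3 and H4 genes. CCAAT stood in all 14 H2B and all 17 H2A genes but in 3 of 11 H4 genes. A match describes the letters and not a bound site.

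H2bc4 (ENSMUSG00000018102) was the highest H2B gene. Its level was 120.0, 87.2, 108 and 109 CPM in PBS 1 to 4, and 115, 122, 82.0 and 78.5 CPM in PDT 1 to 4. PDT 1 and 2 lay with the PBS libraries, and PDT 3 and 4 lay below all of them. The log2 fold change was -0.09 ± 0.17 (SE), with an adjusted p in edgeR of 0.849 and a 95% interval of the fold of 0.726 to 1.21. The longest annotated transcript of H2bc4 has 1156 bases in 2 exons, with an intron after the stop codon, and holds no copy of the stem-loop letters.

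H2bc21, an H2B gene of chromosome 3 known to give a polyadenylated mRNA, was the next H2B gene. It stood at 3.32, 6.06, 6.42 and 5.87 CPM in PBS 1 to 4, and at 5.59, 6.57, 4.19 and 5.08 CPM in PDT 1 to 4. The groups overlapped, with a log2 fold change of -0.02 ± 0.29 (SE, adjusted p in edgeR 0.988). Its annotated transcript runs on for 2192 bases after the stop codon and holds no stem-loop letters either. H2bc27 lay between 0.707 and 3.996 CPM in PBS and between 0.937 and 2.88 CPM in PDT, with a log2 fold change of -0.32 ± 0.55 (SE).

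H2bc8 had the smallest p of the H2B genes. It stood at 1.85, 2.15, 1.53 and 1.77 CPM in PBS 1 to 4, and at 0.0887, 0.280, 1.61 and 1.30 CPM in PDT 1 to 4. PDT 1 and 2 were far below every other library, and PDT 3 lay within the PBS range. The log2 fold change was -1.15 ± 0.77 (SE), with an adjusted p in edgeR of 0.510.

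H2ac25 was the most abundant H2A gene and lies on chromosome 11, away from the main clusters. Its level was 1.99, 3.004, 0.920 and 2.36 CPM in PBS 1 to 4, and 4.15, 2.50, 3.55 and 3.64 CPM in PDT 1 to 4. PDT 1, 3 and 4 lay above every PBS library and PDT 2 lay within the PBS range. The log2 fold change was 0.74 ± 0.42 (SE), with an adjusted p in edgeR of 0.422. H2ac8 lay between 0.599 and 1.51 CPM over all libraries and H2ac6 between 0.109 and 1.43 CPM, with log2 fold changes of 0.30 ± 0.60 and 0.64 ± 0.89 (SE). Without PBS 3 that of H2ac6 was 1.89. The 3 estimates were positive, and each had an interval that crossed 0.

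The H3 genes, which encode the replicative H3.1 and H3.2 proteins, were low throughout, with 12 of 12 under 1 CPM on average. H3c4, the highest, stood at 2.04, 1.67, 0 and 0.698 CPM in PBS 1 to 4, and at 0.222, 0.612, 0.981 and 0.342 CPM in PDT 1 to 4. The PBS libraries alone spanned the whole range, and the log2 fold change was -1.03 ± 1.09 (SE, adjusted p in edgeR 0.708). H3c3 and H3c15 had log2 fold changes of 0.48 ± 0.86 and 1.001 ± 1.11 (SE), and that of H3c15 was 1.74 without PBS 3 and 0.35 without PDT 2. H3c11 had the smallest p of the H3 genes, with 1.14, 0.429, 0 and 0.291 CPM in PBS and 0.288, 0, 0.112 and 0 CPM in PDT. Its log2 fold change was -2.17 ± 1.48 (SE, adjusted p in edgeR 0.521), with -1.22 without PBS 1 and -3.50 without PDT 1. Only 21.7% of the H3c11 sequence and 37.4% of that of H3c15 were unique among annotated transcripts, so the values of both are uncertain.

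H4c9 was the highest of the H4 genes, which encode an almost invariant protein, and had the smallest p of the 29. Its level was 10.6, 8.70, 7.73 and 7.62 CPM in PBS 1 to 4, and 14.9, 10.1, 7.94 and 15.0 CPM in PDT 1 to 4. PDT 1 and 4 lay above every PBS library, and PDT 2 and 3 lay within the PBS range. The log2 fold change was 0.47 ± 0.24 (SE), the unadjusted p 0.0802 and the adjusted p in edgeR 0.374, with 0.274 to 0.82 over the alternative analyses. H4c8 lay between 0.218 and 3.90 CPM in PBS and between 2.10 and 3.03 CPM in PDT, so that the PBS libraries spread more widely than the treated ones. Its log2 fold change was 0.57 ± 0.69 (SE), and 1.52 without PBS 4. That of H4c11 was 0.27 ± 1.29 (SE), 1.22 without PBS 1 and 2.63 in limma-voom.

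**Figure D4:**
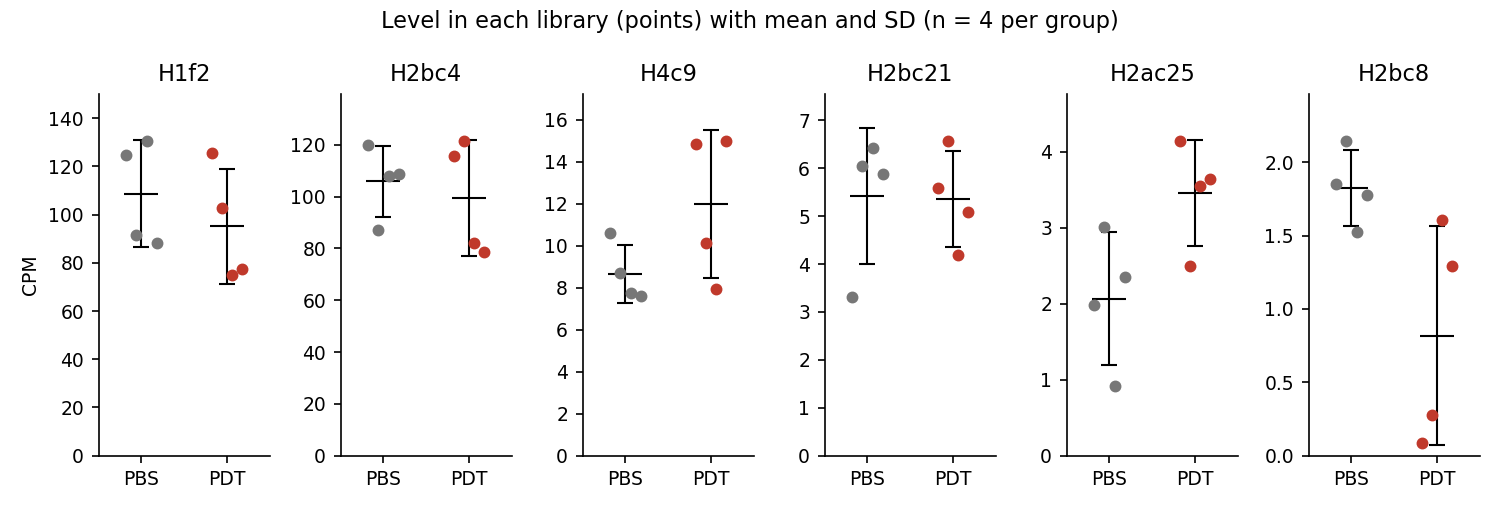
CPM of H1f2, H2bc4, H4c9, H2bc21, H2ac25 and H2bc8 in each library (points) with the mean and SD of the 4 libraries of a group, PBS beside PDT, and a scale of its own for each gene. The groups overlap in every gene shown, and H2bc8 is lowest in PDT 1 and 2.

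The annotation and sequence of the genes were set beside their levels. Many histone genes are near-identical copies, and how reads that match several copies were counted is not given in the sources used here. For each gene the share of 75-base windows of its longest transcript that occur in no other gene's transcripts was computed. Of the 28 genes with under 50% such windows, 0 reached 1 CPM, and their values are uncertain for that reason. Of the 10 genes with 90% or more, 3 reached 1 CPM (H1f2, H1f3 and H2bc21) and 7 did not. H1f5, H1f1, H4c14 and H2ac1 were unique in 100% of windows and averaged 0.419, 0.163, 0.396 and 0 CPM. H2bc4, with about 100 CPM, was unique in 72.9% of windows. What part shared sequence has in the low levels was not tested.

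**Figure D5:**
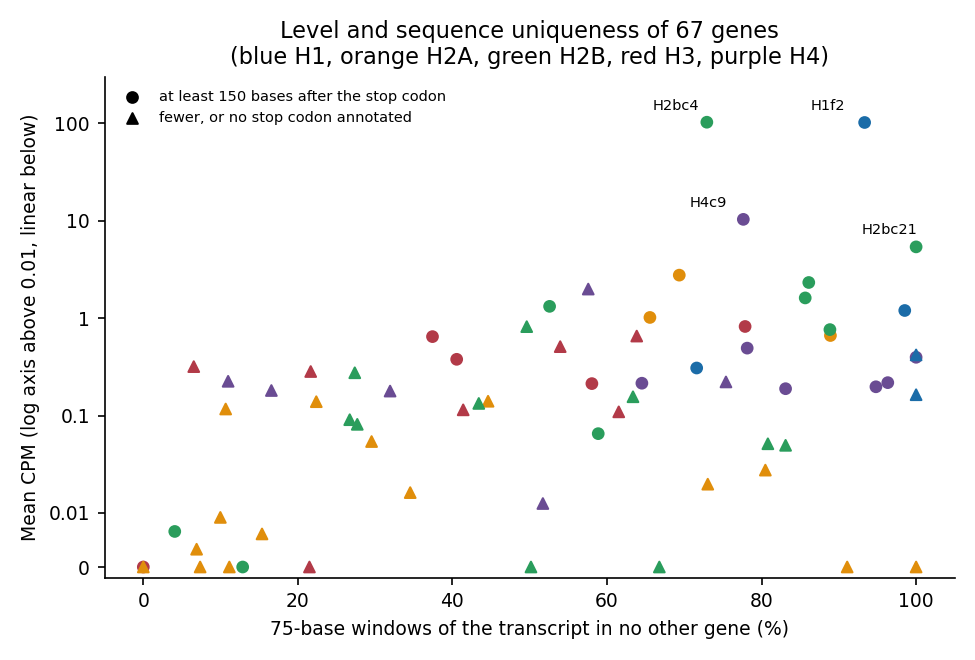
Mean CPM over 8 libraries against the percent of 75-base windows unique to the gene, for the 67 genes, coloured by histone type, with circles for genes with at least 150 annotated bases after the stop codon. The level axis is logarithmic above 0.01 and linear below. No gene under 50% reaches 1 CPM, and genes at or near 100% range from 0 to about 100 CPM.

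The length of the annotated 3′ end differed too. Of 27 genes with at least 150 annotated bases after the stop codon, 10 averaged 1 CPM or more, and of 39 with fewer, 1 did (H4c8). H2bc26, which GENCODE M21 lists as a processed pseudogene, has no annotated stop codon. In H1f2, 880 bases follow the stop codon and 840 of them follow the stem-loop, with 1 copy of AATAAA, the letters of a polyadenylation signal. The annotation is itself built from observed transcripts, and median uniqueness was 77.6% in the first set and 41.4% in the second, so the measures move together and the part of each was not tested.

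Other RNAs known to lack a poly(A) tail, chosen after the data were seen, varied. Rn7sk, the RNA of the 7SK particle, had 8 to 172 reads per library. Rpph1, the RNA of RNase P, and Rnu7, the U7 RNA that guides histone 3′ cleavage, had 0 reads in all 8 libraries. Malat1, a nuclear RNA with a triple-helix end, was read at 73.9 to 194.6 CPM. What was left of 18S ribosomal RNA (Rn18s-rs5) after depletion was the most abundant of the list, at 2342 to 5696 CPM with PBS, 2638 to 3928 CPM in PDT 1 to 3 and 13707 CPM in PDT 4. What part the absence of a tail has in the low histone levels was not tested.

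Many H2A and H2B genes lie head to head and share the DNA between them. Among the 67 genes, 13 such neighbours on opposite strands were found with starts at most 500 bases apart, and in 9 of them both partners averaged under 1 CPM. H2bc4 averaged 103 CPM and its partner H2ac6 0.663 CPM across a gap of 251 bases. H2bc21 averaged 5.39 CPM and its partner H2ac20 0.0275 CPM. H2ac25 averaged 2.76 CPM and its partner H2bc26 0.0512 CPM. H2ac8 and H2bc8, at 1.02 and 1.32 CPM, were the only pair of the 13 with both partners at 1 CPM or more.

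The replication-independent histones replace the cluster histones outside S phase and are mostly made from ordinary polyadenylated mRNAs, while H2ax can end in either way. They were compared per kilobase of transcript. The H2A variants summed to 472 to 745 CPM per kilobase, where the 18 H2A cluster genes summed to 2.50 to 7.14. The ratio was 172 ± 43.0 with PBS and 121.5 ± 36.6 with PDT (SD, n = 4 each). For H3 the variants, H3f3a and H3f3b among them, summed to 611 to 870 CPM per kilobase and the cluster genes to 3.06 to 8.50. For H1 the ratio was 2.17 ± 0.2503 with PBS and 2.27 ± 0.741 with PDT, so of these 3 types H1 was the one in which the cluster genes came nearest to the variants.

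No single variant passed the test in edgeR. H3f3b, which encodes the variant H3.3, averaged 1146 ± 126 CPM with PBS and 1130 ± 114 CPM with PDT (SD, n = 4). H3f3a, the other gene of H3.3, averaged 655 ± 84.5 and 810 ± 108 CPM, with a log2 fold change of 0.31 ± 0.14 (SE, adjusted p in edgeR 0.299). H2az1, which encodes H2A.Z, averaged 402.9 ± 76.0 and 431 ± 84.0 CPM, and H2ax, the histone phosphorylated at DNA breaks, had a log2 fold change of 0.05 (adjusted p 0.922). H1f0, a linker histone of resting cells, averaged 301.6 ± 36.9 and 263.6 ± 43.6 CPM, with an adjusted p of 0.560. Macroh2a2 and Cenpa, a macroH2A and the centromeric H3, had the smallest p of the variants, with log2 fold changes of 0.88 ± 0.30 and 0.48 ± 0.17 (SE) and adjusted p of 0.179 and 0.182. Of 11 variants tested, 9 were higher, 2 lower and 0 past the threshold, with a median log2 fold change of 0.21.

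The genes of histone mRNA processing did not pass the test either. Slbp, the stem-loop binding protein, stood at 56.3, 59.3, 42.1 and 54.1 CPM in PBS 1 to 4, and at 60.6, 55.9, 50.6 and 46.6 CPM in PDT 1 to 4. The groups overlapped and the log2 fold change was 0.01 ± 0.14 (SE, adjusted p in edgeR 0.979). Npat, the cyclin E-CDK2 target that organises the histone locus body, averaged 24.8 ± 3.06 CPM with PBS and 19.3 ± 4.88 CPM with PDT (SD, n = 4), with an adjusted p in edgeR of 0.384. Lsm11, of the U7 particle, had a log2 fold change of 0.03 ± 0.20 (SE) and Casp8ap2, also of the locus body, -0.26 ± 0.19 (SE). Mblac1, a nuclease that acts on histone pre-mRNA, and Srrt (ARS2) had the smallest p of this list, with log2 fold changes of 1.11 ± 0.43 and 0.49 ± 0.19 (SE). Of its 24 genes, 14 were higher, 10 lower and 0 past the threshold, with a median of 0.05.

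Of 16 regulators of histone transcription, 6 were higher, 10 lower and 0 past the threshold, with a median log2 fold change of -0.12. E2f1, an S-phase activator, had a log2 fold change of 0.44 ± 0.18 (SE, adjusted p in edgeR 0.238) and Yy1, a promoter factor, -0.26 ± 0.11 (SE, adjusted p 0.261). Of 17 histone chaperones, 9 were higher, 8 lower and 0 past the threshold, with a median of 0.01. Chaf1a, the CAF-1 subunit that deposits new H3 and H4 behind the fork, was 11.3 to 13.4 CPM with PBS and 14.1 to 20.6 CPM with PDT. Its groups did not overlap, which held for 1 of the 17 chaperones and for 10.1% of all tested genes. The log2 fold change of Chaf1a was 0.50 ± 0.18 (SE, adjusted p in edgeR 0.190). Daxx, an H3.3 chaperone, had a log2 fold change of 0.36 ± 0.14 (SE).

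Replication genes give a scale for S phase in the same libraries. The 31 genes of this list summed to 1254 to 1536 CPM with PBS and 1367 to 1572 CPM with PDT. Of them 21 were higher, 10 lower and 0 past the threshold, with a median log2 fold change of 0.06. The 67 histone genes summed to 17.9% ± 2.83 of that level with PBS and 16.2% ± 3.99 with PDT (SD, n = 4 each), and to 2.51% ± 0.177 and 2.93% ± 0.681 without H1f2 and H2bc4. Pcna, the replication clamp, had a log2 fold change of 0.02 ± 0.13 (SE, adjusted p in edgeR 0.965), and Mcm2, of the replicative helicase, 0.07 (adjusted p 0.888). Gmnn, the licensing inhibitor geminin, and Tyms, which makes thymidylate, had the smallest p of the list, with log2 fold changes of 0.46 ± 0.15 and 0.33 ± 0.13 (SE) and adjusted p of 0.160 and 0.210. Of 20 genes of G2 and mitosis, 11 were higher, 9 lower and 0 past the threshold, with Mki67, a marker of cycling cells, at 68.6 ± 6.97 and 73.2 ± 17.0 CPM. Plk1 and Aurkb, mitotic kinases, had log2 fold changes of 0.56 ± 0.19 and 0.32 ± 0.13 (SE), with adjusted p of 0.174 and 0.258.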

How the data were processed

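The counts per gene were deposited by the authors as 1 table of whole numbers for the 8 libraries. Per the submitters' processing notes, cutadapt 4.6 and STAR 2.7.11b were used with GRCm39, while nothing used here gives the counting tool, its strand setting or its treatment of reads with several matches. Of counts from 1 to 20, 77.9% to 83.8% were even, so both reads of a pair may have been counted. Wilson intervals cover counting error only and would then be too narrow. Rows without a symbol (484) were kept in the count table and took up 0.0128% to 0.0176% of counts. Genes were tested in R 4.3.3 with edgeR 4.0.16 (filterByExpr, TMM, quasi-likelihood test, adjusted p threshold 0.05), with DESeq2 1.42.0 and limma 3.58.1 as alternatives. The test was tried on simulated counts. Other alternatives were scaling, filters, halved counts, offsets for GC content and length (known for 98.1% of tested genes), the replicate block and leaving out each library. CPM values are TMM-scaled.

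Libraries were grouped by their titles. The members and lists were chosen with earlier results of these data known. Histone genes described are the 3 most abundant of each type and the one with the smallest p, with other members named for the annotation. In the other lists the 2 genes with the smallest p and a fixed set of factors are described. GENCODE M21 is of build GRCm38 and was matched by Ensembl identifier for 67 of 67 genes, with no coordinates moved between builds. As a check for a library deposited again, the counts of all 28 pairs were compared. The chi-square per degree of freedom was 69.1 to 218, and none were merged.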

Additional observations from a re-analysis of the deposited data

Results flagged for a closer look

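In 94 groups of 4 values, each the libraries of 1 group for 1 gene or sum, the distance of the highest or lowest library from its neighbour was compared with the range of the group (Dixon's test). Chance alone marks about 1 group in 20. H4c8 in PDT 4 stood at 3.03 CPM, with the other PDT libraries between 2.10 and 2.19 CPM. Yy1 in PDT 1 stood at 181.5 CPM, with the others between 156.7 and 157.5 CPM. Neither gene passed the test between PDT and PBS.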

How the results depend on the processing

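The count of histone genes past the threshold was 0 in the main analysis and in all 18 alternative fits, although DESeq2 gave an adjusted p for only 9 of the 29 tested. Without a filter, unadjusted p in edgeR fell under 0.05 for 5 of 57 histone genes, against 3580 of 27316 genes. These were H2ac11, H3c1, H2bc13, H3c10 and H2bc7. Only H3c10 of them had a read in a PBS library, and H2bc7 had reads in PDT 1 only. With the GC and length correction it did so for H1f2, against 2617 of 16588 genes. With 1 library left out it did so for 0 to 2 histone genes, against 2094 to 2898 of all tested genes. Those histone genes were H4c9 (without PBS 1 or without PDT 3), H4c17, H4c14, H4c3, H4c1 and H4c8. In the 6 lists on histone biology 1 gene passed without a filter (H2aj, log2 fold change 0.87, adjusted p 0.0479) and 0 in the other alternatives. The number of all genes past the threshold was 39. It was 69 with upper-quartile scaling, 534 without a filter, 88 with a filter of 1 CPM, 67 with halved counts, 13 with the GC and length correction, 869 in DESeq2 and 167 in limma. It was 0 to 122 with 1 library left out, and 0 without PBS 3 and without PDT 1.

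The deviations of libraries with the same number had correlations of 0.0385 to 0.0690 for the 4 numbers. Those of libraries with different numbers ran from -0.124 to 0.136. The labels do not call the numbers pairs, and they were not taken as pairs. With the replicate block 182 genes passed, of which 0 were histone genes. The block turned the sign of H1f5 to 0.080 and of H2bc21 to 0.0092.

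The log2 ratio of the summed H1 level was 0.21 without H1f2, and that of all 67 genes 0.29 without H1f2 and H2bc4. With 1 library left out, the ratios ran from -0.35 to -0.09 for H1, 0.62 to 0.79 for H2A, -0.18 to -0.0041 for H2B, -0.10 to 0.41 for H3, 0.45 to 0.71 for H4 and -0.19 to 0.02 for all. Signs of single genes turned in 44 of 727 cases, none of them past the threshold. Total-count scaling gave -0.026 for Slbp, -0.0023 for Lsm11 and -0.020 for Pcna, and upper-quartile scaling 0.00096 for H2bc21. The GC and length correction gave -0.069 for H4c11, -0.023 for Slbp, -0.14 for H2az1, -0.32 for H2ax, -0.085 for Mcm2 and -0.135 for Pcna. In limma H1f5 was 0.39, H3c4 0.27, Slbp -0.025, Lsm11 -0.0061 and Pcna -0.024. With 1 library left out the range was -1.17 to 0.68 for H1f5, -0.19 to 0.017 for H2bc4, -0.19 to 0.088 for H2bc21, -0.14 to 1.22 for H4c11, -0.081 to 0.083 for Slbp, -0.075 to 0.14 for Lsm11, -0.026 to 0.24 for H2az1, -0.034 to 0.18 for H2ax, -0.078 to 0.045 for H3f3b, -0.020 to 0.20 for Mcm2 and -0.052 to 0.083 for Pcna. The cause of these changes was not tested. Leaving out 1 library moved the fold of 17 of the 29 tested histone genes by over 1.5 times. The other 12 were H1f2, H1f3, H2ac25, H2ac8, H2bc21, H2bc27, H2bc4, H2bc8, H2bc9, H3c3, H3c4 and H4c9. Of the 67 genes 38 had too few reads to be tested.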
